A study of Mus musculus with 14 samples.

Results

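The Krüppel-like factors (KLFs) examined here were Klf2, Klf3, Klf4, Klf5, Klf6 and Klf9, and their members in the data were the stretches of accessible chromatin assigned to these 6 genes. ATAC-seq, in which a transposase inserts adapters into open DNA, was carried out on KH2 mouse embryonic stem (ES) cells, strain C57BL/6, that carried the transgene TRE:GATA6-DSREd2, a doxycycline (Dox)-responsive element driving GATA6 and the red fluorescent protein DsRed2. Peaks from 14 deposited lists were merged where they overlapped by at least 1 bp, and each merged region was given to the nearest protein-coding transcription start site (TSS) if that lay within 50 kb. Of 124598 merged regions, 116 went to the 6 genes, namely 13 to Klf2, 23 to Klf3, 16 to Klf4, 24 to Klf5, 23 to Klf6 and 17 to Klf9. The genes were chosen by the gained and lost regions counted in these same lists, so those counts are given as a description and were not tested.

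All 7 groups carried the transgene and came from the same line, and each had 2 libraries of 50000 cells. The 0 h cells were grown in 2i medium with LIF and received no Dox. Cells of 2, 4 and 8 h were in serum medium with LIF and Dox at 1 µg/mL for that time, and cells of 16, 24 and 48 h had Dox for 12 h followed by serum medium without it. The change of medium and the induction of GATA6 therefore cannot be told apart, since no library came from serum-grown cells without Dox. Nothing in the labels says whether the paired libraries were separate cultures.

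KLFs are zinc-finger transcription factors that bind GC-rich and CACCC sequences, some activating and some repressing transcription. Klf2, Klf4 and Klf5 are known for maintaining naive pluripotency in ES cells, where they act with overlapping functions beside Nanog and Esrrb. Klf5 also acts in the first lineages of the blastocyst, and Klf4 is one of the factors used to reprogram somatic cells. Klf3 is mainly a repressor, Klf6 is an early-response gene of many tissues, and Klf9 responds to glucocorticoid and thyroid hormone. GATA6 is the factor that directs inner cell mass cells to primitive endoderm (PrE) instead of epiblast (Epi).

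A region was called gained at a time point if both libraries of that time and neither 0 h library held a peak in it, and lost if the reverse was true. The lists hold 55588 to 65073 peaks per library and no read counts, so the depth behind a call was not taken into account. A region without a peak may be accessible below the calling threshold. In these bulk samples, fewer cells with an open region and a weaker signal per cell cannot be told apart. Each peak carries 1 deposited score, and this is given below as its percentile among all peaks of its own list, where 100 would be the highest. As a check of the cell type, promoters of 5 to 7 of 8 ES cell and epiblast markers, 7 to 10 of 10 PrE markers and 3 to 5 of 5 trophectoderm markers were called per library, and most promoters of each lineage were thus called at all times. The promoter of Foxa2, a PrE transcription factor, was called in no library before 8 h and in every library from then on.

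The number of the 116 regions called rose from 40 and 46 in the libraries of 0 h to 64 and 67 at 16 h, and was 46 and 52 at 48 h. At 2, 4, 8 and 24 h it was 47 and 49, 50 and 49, 51 and 48, and 56 and 57. Only the 16 and 24 h libraries lay above all libraries of the other times. The deposited lists were also longest at 16 h, with 61857 and 65073 peaks. In lists cut to their 50000 highest-scoring peaks, 21 regions were gained at 16 h and 25 at 24 h, against 31 and 27 in the full lists. The part of list length in the number of regions called at 16 h was not tested.

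**Figure D1:**
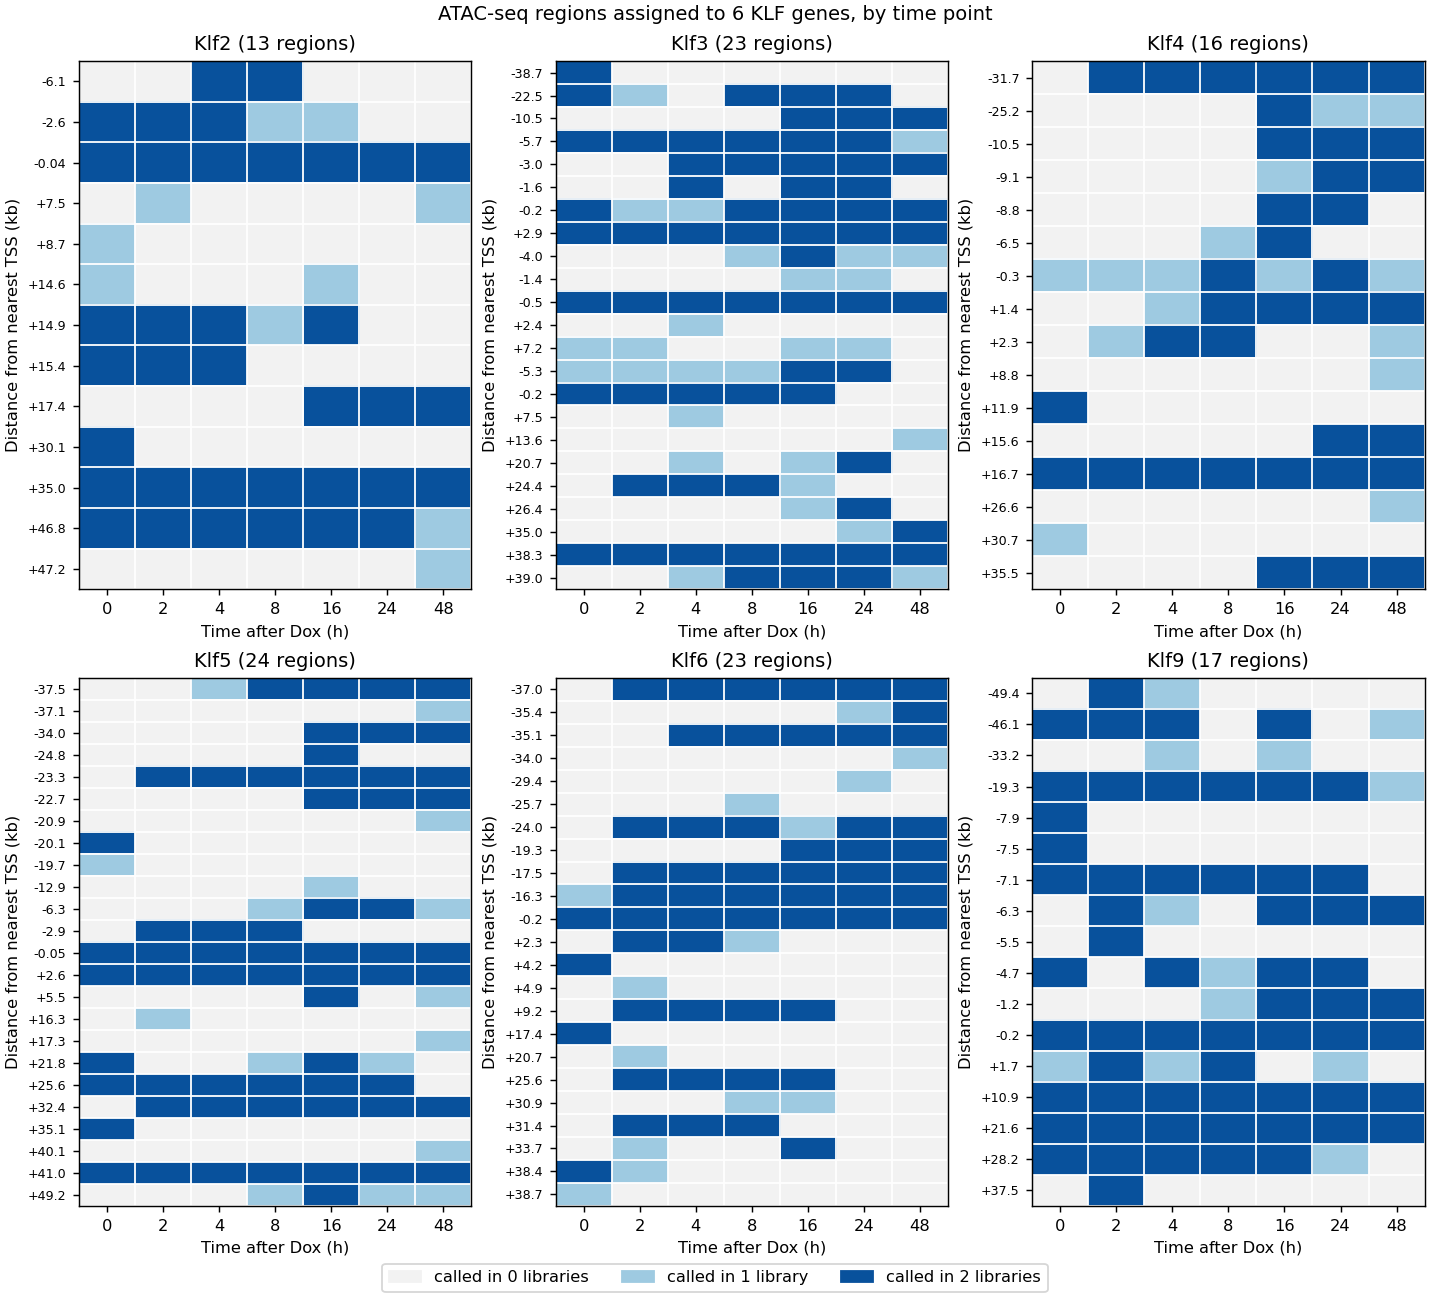
Calls of the 116 regions at 7 time points, 1 panel per gene, with rows in the order along the gene and labelled by distance from the nearest TSS of that gene in kb; colour gives whether 0, 1 or 2 libraries of a time point called the region. Klf4 gains regions on both sides of its promoter, most of them from 16 or 24 h. Klf6 gains 7 regions at 2 h, 3 upstream and 4 downstream of its TSS, and Klf2 loses regions on both sides of its promoter.

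Of the 116 regions, 16 (13.8%) were gained at 2 h, 17 (14.7%) at 4 h and 18 (15.5%) at 8 h. At the later times, 31 (26.7%) were gained at 16 h, 27 (23.3%) at 24 h and 23 (19.8%) at 48 h. Over all merged regions the gained shares, in the same order of time, were 8.64%, 10.1%, 11.1%, 13.3%, 11.6% and 14.5%. The lost regions numbered 11, 12, 12, 11, 15 and 20 at the same times, which is 9.48%, 10.3%, 10.3%, 9.48%, 12.9% and 17.2%. The lost share over all regions was 6.25%, 7.37%, 9.99%, 9.71%, 13.2% and 16.6%. Since these contrasts chose the genes, the shares are set side by side without a reading.

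Within the family, 13 regions (11.2%, against 15.1% of all regions) were called in all 14 libraries, and 17 (14.7%, against 13.9%) were called in both libraries of some time between 2 and 24 h but in no 0 h or 48 h library. A further 43 of the 116 were in neither of these classes and neither gained nor lost at 48 h, against 49709 of all 124598 regions. Of the 116, 27 were never called in both libraries of any time point, against 30391 of all regions. Of 812 region and time pairs, 94 (11.6%) had a peak in 1 of the 2 libraries, against 13.2% over all regions. Most of the 116 were distal, with 8 centred within 1 kb of a TSS of their gene and 91 more than 5 kb away. Most regions of the series were distal too. Of all 124598, with no distance limit, 20354 were within 1 kb of the nearest TSS and 90402 more than 5 kb away. At the edge of the 50 kb limit, the outermost region inside was the Klf9 region 49387 bp upstream, called in both 2 h libraries and 1 4 h library, and the nearest outside were those 50190 bp upstream and 50453 bp downstream of Klf9.

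**Figure D2:**
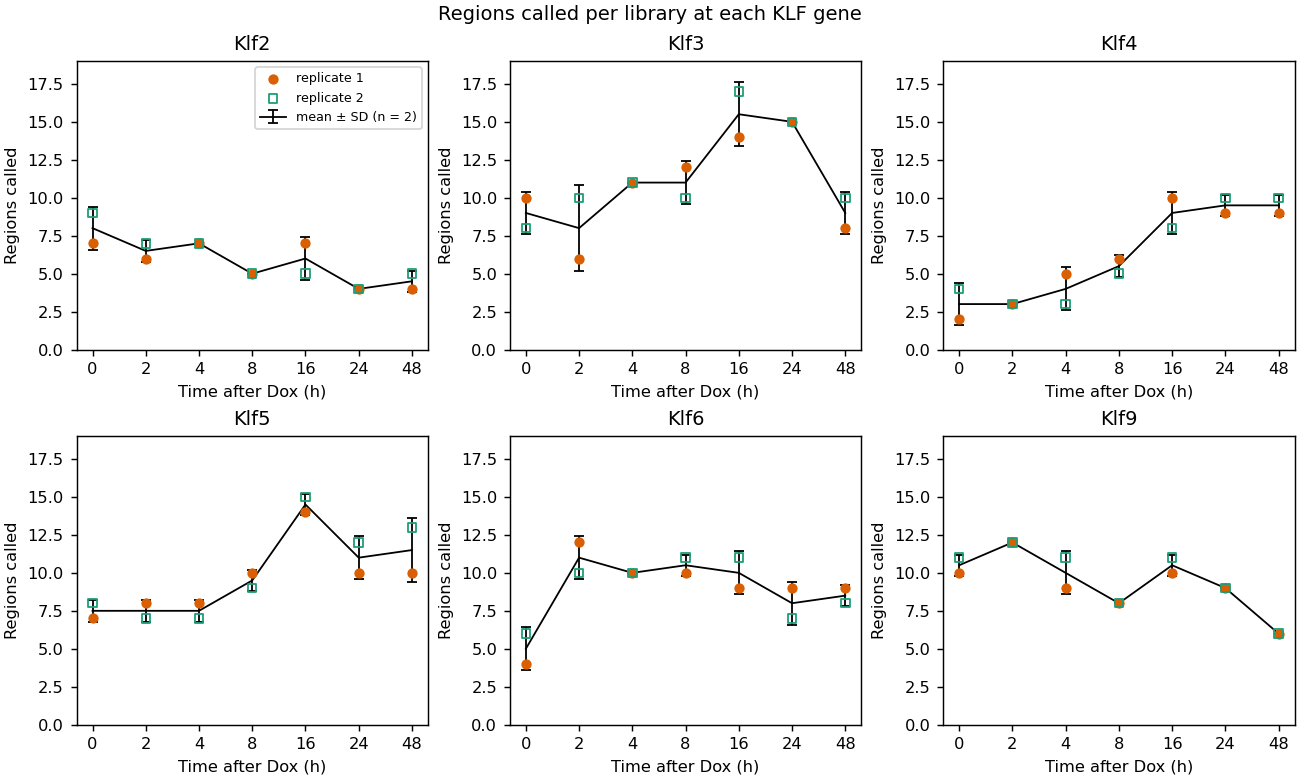
Regions called per library (y) against hours after Dox (x), 1 panel per gene; circles and squares are the libraries and the line with bars is the mean ± SD (n = 2). Klf4 goes from 2 and 4 regions at 0 h to 9 and 10 at 48 h, and Klf9 from 10 and 11 to 6 and 6.

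Of the Klf4 regions, 37.5% were gained at 48 h, against 14.5% of all merged regions. Gained counts took part in choosing the genes, so the genes are not ranked by this share. The gene lies at chr4:55527143-55532466 on the minus strand (GRCm38, ENSMUSG00000003032). At 48 h, 6 of its 16 regions were gained and 1 was lost. Where peaks had to cover at least 50% of a region, 4 Klf4 regions were gained and 1 was lost. The sequences below include the 3 gained regions with the highest scores at 48 h and the lost region. They also include the gained region that was called earliest (chosen after its values were seen). Each is the central 200 bp, and capitals mark GATA motifs (the words AGATAA and AGATAG with their variants TGATAA and TGATAG, on either strand) and the octamer ATGCAAAT, a binding sequence of OCT4 and related POU factors, on either strand.
Klf4 15645 bp downstream (chr4:55516026-55516225, + strand): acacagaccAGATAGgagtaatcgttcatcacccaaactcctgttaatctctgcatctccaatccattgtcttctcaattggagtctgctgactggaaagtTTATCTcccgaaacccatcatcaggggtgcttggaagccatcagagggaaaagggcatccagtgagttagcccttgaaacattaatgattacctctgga
Klf4 10481 bp upstream (chr4:55542848-55543047, + strand): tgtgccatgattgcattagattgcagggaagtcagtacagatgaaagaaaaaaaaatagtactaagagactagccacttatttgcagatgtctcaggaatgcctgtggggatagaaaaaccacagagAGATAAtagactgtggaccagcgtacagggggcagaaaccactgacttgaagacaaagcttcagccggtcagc
Klf4 1415 bp downstream (chr4:55530256-55530455, + strand): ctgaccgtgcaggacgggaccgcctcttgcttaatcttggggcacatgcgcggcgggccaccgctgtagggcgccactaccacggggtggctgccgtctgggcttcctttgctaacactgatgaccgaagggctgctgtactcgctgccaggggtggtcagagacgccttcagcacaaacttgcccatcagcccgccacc
Klf4 31740 bp upstream (chr4:55564107-55564306, + strand): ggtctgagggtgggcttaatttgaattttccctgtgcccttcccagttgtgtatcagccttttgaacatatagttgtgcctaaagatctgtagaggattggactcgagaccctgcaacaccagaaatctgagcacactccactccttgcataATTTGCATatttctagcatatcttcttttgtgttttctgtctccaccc
Klf4 11921 bp downstream (chr4:55519750-55519949, + strand): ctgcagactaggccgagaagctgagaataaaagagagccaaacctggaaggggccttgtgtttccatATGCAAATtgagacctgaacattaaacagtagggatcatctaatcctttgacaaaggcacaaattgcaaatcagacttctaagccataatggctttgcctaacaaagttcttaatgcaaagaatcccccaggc

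The Klf4 libraries held 2 and 4 called regions at 0 h, 3 and 3 at 2 h, 5 and 3 at 4 h, 6 and 5 at 8 h, 10 and 8 at 16 h, 9 and 10 at 24 h, and 9 and 10 at 48 h. The libraries of 16, 24 and 48 h overlapped one another and all lay above those of 0 to 8 h, whereas 0, 2 and 4 h could not be ordered within their spread. The length of chromatin covered by peaks went from 1.43 ± 0.623 kb at 0 h to 4.44 ± 0.748 kb at 48 h (SD, n = 2). Gained regions numbered 1, 2, 3, 7, 7 and 6 at 2, 4, 8, 16, 24 and 48 h, and 1 region was lost at each of these times.

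The gained Klf4 regions appeared in steps. First was the region 31740 bp upstream, in an intron of the noncoding gene Gm12511, which was called in both libraries from 2 h on. Its score percentiles were 29.2 and 34.3 at 2 h, 61.3 and 31.7 at 4 h, 70.1 and 63.9 at 8 h, 91.7 and 89.5 at 16 h, 86.3 and 82.6 at 24 h, and 50.4 and 55.5 at 48 h. It thus stood highest at 16 h, and it holds the octamer shown in capitals and no GATA motif in its central 200 bp. The region 1415 bp downstream, over a coding exon of Klf4, was called in 1 library at 4 h and in both from 8 h, with percentiles of 32.2 and 46.1 at 8 h and 59.9 and 67.7 at 48 h.

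At 16 h the region 10481 bp upstream was added, at percentiles of 44.0 and 42.2, which became 75.1 and 68.6 at 24 h and 71.9 and 81.5 at 48 h. The region 35479 bp downstream also began at 16 h but stood low at 48 h, at a mean percentile of 9.67. Last came the regions 9084 bp upstream and 15645 bp downstream, called in both libraries from 24 h. The latter had the highest score of the gained Klf4 regions at 48 h, going from 53.7 and 48.9 at 24 h to 93.5 and 95.1 at 48 h, and it holds 2 GATA motifs. Its neighbour 16722 bp downstream was the only Klf4 region called in all 14 libraries, at percentiles from 87.4 to 97.1. Klf4 regions seen only on the way were those 6511 bp upstream, called in both libraries at 16 h, and 8802 bp upstream, called in both at 16 and 24 h.

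The lost Klf4 region, 11921 bp downstream, was called at 0 h only, at percentiles of 8.72 and 32.0. The promoter region, centred 270 bp upstream of the TSS, was called in both libraries at 8 and 24 h and in 1 of 2 at each other time. Where called, its percentile was between 18.2 and 61.9, and its central window was 79.5% GC. Klf4 thus differed from Klf2, Klf5, Klf6 and Klf9, whose promoters were called in all 14 libraries.

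**Figure D3:**
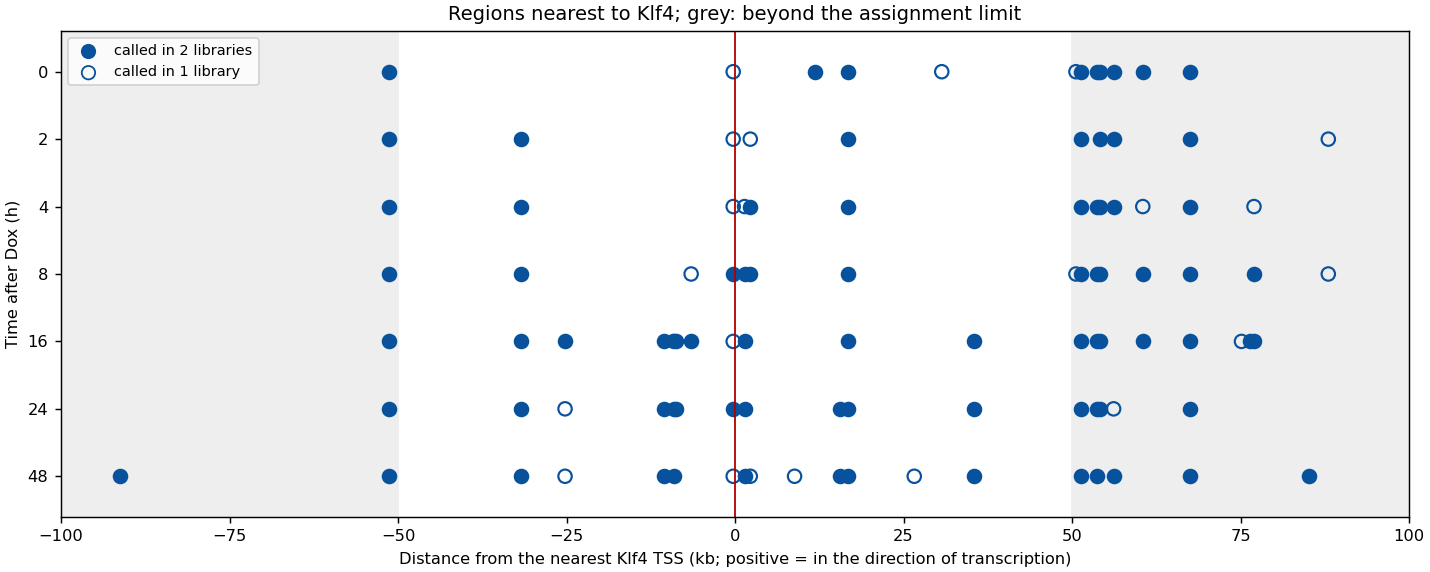
Position of each region nearest to Klf4 (x, distance from the nearest Klf4 TSS in kb, positive in the direction of transcription) at each time (y); filled circles were called in both libraries and open circles in 1, and grey marks distances beyond 50 kb. Regions around the gene accumulate from 16 h, and of the 12 downstream regions beyond 50 kb, 6 were called in both libraries at 0 h.

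In ES cells Klf4 is known to be controlled by enhancers further downstream than the 50 kb limit reaches. Between 50 and 100 kb, 14 more regions had Klf4 as the nearest gene, of which 2 were gained and 2 lost at 48 h and 3 were called in all 14 libraries. The region 54197 bp downstream was called in both libraries from 0 to 24 h and in neither at 48 h, and its mean percentile at 0 h was 85.8. The region 60499 bp downstream was also lost. The region 56172 bp downstream was called in both libraries at 0 and 48 h, with a mean percentile of 77.5 and 22.2. Regions 51351 and 67458 bp downstream were called in every library, with mean percentiles at 0 h of 87.4 and 96.2 and at 48 h of 57.2 and 92.2. With the limit at 100 kb, Klf4 therefore had 8 gained and 3 lost regions.

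Klf5, at chr14:99298691-99315036 (plus strand, ENSMUSG00000005148), gained and lost high-scoring regions on the same side of the gene. The region with the highest score among those gained at 48 h is shown because it was called in both libraries from 2 h and holds 3 GATA motifs, in capitals.
Klf5 32377 bp downstream (chr14:99331432-99331631, + strand): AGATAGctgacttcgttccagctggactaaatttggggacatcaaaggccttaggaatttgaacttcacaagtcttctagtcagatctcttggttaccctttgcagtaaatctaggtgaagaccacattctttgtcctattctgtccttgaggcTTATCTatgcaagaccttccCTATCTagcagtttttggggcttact

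This region, 32377 bp downstream, stood at 97.4 and 98.0 at 2 h and at 92.5 and 90.0 at 48 h, and was at percentiles from 94.1 to 99.1 in the libraries between. The region 25571 bp downstream, 1 of the 4 lost at 48 h, had percentiles of 98.6 and 96.8 at 0 h, 99.5 and 99.2 at 2 h, 84.7 and 81.8 at 16 h, and 14.7 and 32.1 at 24 h. It was therefore among the highest-scoring peaks of the early lists, and left the lists after 24 h. The second lost region by score, 20066 bp upstream with a GATA motif, was called at 0 h only, at 28.2 and 42.8; the one 35092 bp downstream behaved in the same way at 25.5 and 42.9.

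Libraries held 7 and 8 Klf5 regions at 0 h, 8 and 7 at 2 h, 8 and 7 at 4 h, 10 and 9 at 8 h, 14 and 15 at 16 h, 10 and 12 at 24 h, and 10 and 13 at 48 h. The 16 h libraries were above all others, and those from 8 h on were above those of 0 to 4 h. From 2 to 48 h the gained counts were 3, 3, 4, 9, 6 and 5 and the lost counts 3, 3, 2, 2, 2 and 4. The 48 h counts depended on the distance limit, with 0 gained and 0 lost within 20 kb and 9 gained and 8 lost within 100 kb, and without replicate 1 there were 10 gained. Upstream, the region at 23298 bp was called from 2 h, at 67.7 and 49.8, and was at 95.7 and 95.4 at 8 h and 89.1 and 84.7 at 48 h. Further upstream, the region at 37519 bp was called in both libraries from 8 h and stood at 78.6 and 77.7 at 48 h. That at 34022 bp came at 16 h and stood at 69.4 and 78.0 at 48 h. Among those seen only on the way, the region 2913 bp upstream was called in both libraries at 2, 4 and 8 h only. The region 24777 bp upstream was called in both at 16 h only. The promoter, 49 bp upstream of the TSS, was at percentiles from 97.5 to 99.8 in every library.

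Klf2, at chr8:72319033-72321656 (plus strand, ENSMUSG00000055148), had 1 region gained and 4 lost of 13 at 48 h. With peaks up to 200 bp apart merged, 3 were lost, and where peaks had to cover at least 50% of a region, 6 were lost. The libraries called 7 and 9 of its regions at 0 h, 6 and 7 at 2 h, 7 and 7 at 4 h, 5 and 5 at 8 h, 7 and 5 at 16 h, 4 and 4 at 24 h, and 4 and 5 at 48 h. The 24 and 48 h libraries lay below those of 0, 2 and 4 h. Lost regions numbered 1, 1, 2, 2, 4 and 4 with time, and gained regions 0, 1, 1, 1, 1 and 1.

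The lost Klf2 region with the highest score, 2609 bp upstream, stood at 97.4 and 96.5 at 0 h, 94.1 and 94.3 at 2 h, and 83.9 and 80.8 at 4 h. It was called in 1 library at 8 h, at 23.9, and at 16 h, at 17.9, and in none later. The region 15437 bp downstream had percentiles of 90.9 and 97.1 at 0 h and 65.0 and 62.1 at 4 h and was not called again. Both therefore fell within their lists before they went uncalled. The only gained region, 17364 bp downstream, was called from 16 h and stood at 12.5 and 28.1 at 48 h. With replicate 1 or replicate 2 left out, 2 Klf2 regions were gained. The region 6065 bp upstream, with 4 GATA motifs, was called in both libraries at 4 and 8 h and in none at another time. The promoter, 44 bp upstream, was at percentiles from 88.3 to 96.6 throughout.

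A Klf2 region 35003 bp downstream, in an intron of Eps15l1, was called in all 14 libraries and so does not appear among the gained or lost; it is named after its values were seen. Its percentiles were 60.9 and 69.1 at 0 h, 99.1 and 98.6 at 2 h, 90.0 and 90.9 at 16 h, 60.7 and 57.5 at 24 h, and 29.4 and 16.1 at 48 h. It was highest 2 h after Dox and lowest at 48 h, with no overlap between those libraries and the libraries of 0 h.

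**Figure D4:**
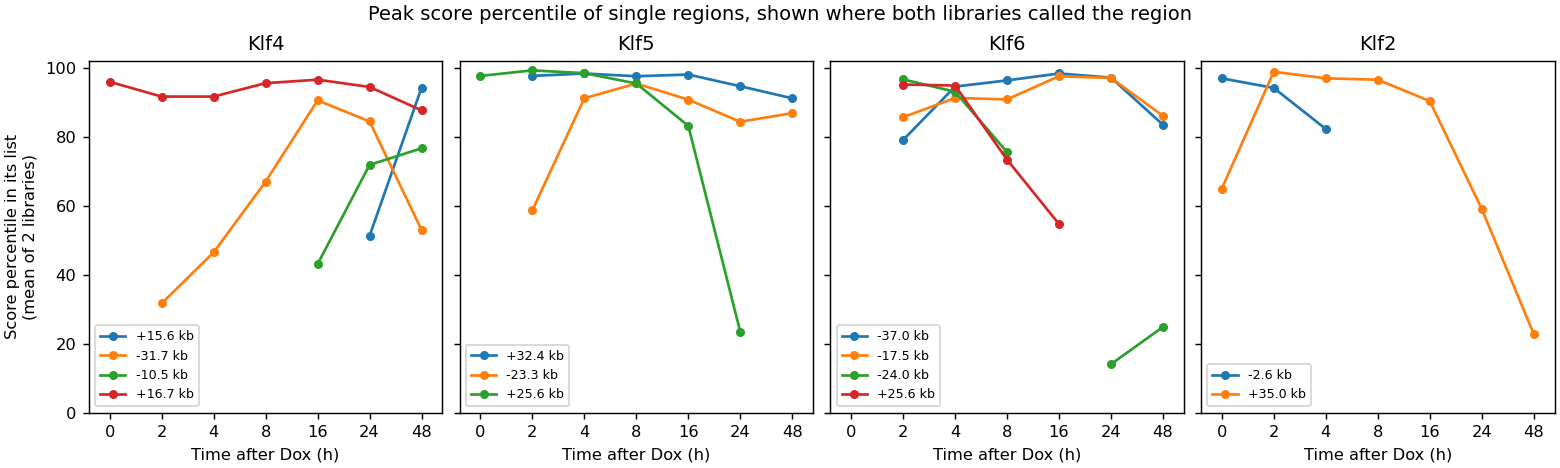
Score percentile within its list (y, mean of 2 libraries, drawn only where both called the region) against hours after Dox (x) for regions of Klf4, Klf5, Klf6 and Klf2, labelled by distance from the nearest TSS in kb. The Klf5 region 32377 bp downstream stays between mean percentiles of 91.2 and 98.4 from 2 h, whereas those 25571 bp downstream of Klf5 and 35003 bp downstream of Klf2 decline after 8 h.

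Klf6, at chr13:5861482-5870394 (plus strand, ENSMUSG00000000078), had the most regions gained at 2 h, the first time sampled, although regions of every gene were gained or lost by then. Libraries called 4 and 6 of its 23 regions at 0 h, 12 and 10 at 2 h, 10 and 10 at 4 h, 10 and 11 at 8 h, 9 and 11 at 16 h, 9 and 7 at 24 h, and 9 and 8 at 48 h. All libraries from 2 h on lay above those of 0 h. At 2 h, 7 regions were gained, followed by 8, 7, 7, 5 and 6 at the later times, and the lost regions numbered 2 and then 3 at each time. The gained region with the highest score at 48 h and the highest-scoring region seen only on the way are shown, with GATA motifs in capitals in the first and the AP-1 motif (TGACTCA or TGAGTCA, on either strand) in capitals in the second, which was chosen after its values were seen.
Klf6 17547 bp upstream (chr13:5843836-5844035, + strand): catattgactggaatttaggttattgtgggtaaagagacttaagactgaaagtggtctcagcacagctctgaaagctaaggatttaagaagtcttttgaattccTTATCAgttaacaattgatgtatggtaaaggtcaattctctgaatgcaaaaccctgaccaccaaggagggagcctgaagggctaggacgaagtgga
Klf6 25639 bp downstream (chr13:5887022-5887221, + strand): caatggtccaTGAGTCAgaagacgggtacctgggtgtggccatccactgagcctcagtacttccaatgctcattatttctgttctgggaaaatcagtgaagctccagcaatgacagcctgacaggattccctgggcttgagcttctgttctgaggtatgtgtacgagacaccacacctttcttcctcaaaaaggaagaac

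All 6 Klf6 regions gained at 48 h lay upstream of the gene, between 17547 and 36966 bp from the TSS, and each held a GATA motif in its central 200 bp. The region at 17547 bp was at 86.1 and 85.3 at 2 h, 97.2 and 97.9 at 16 h, and 87.5 and 84.7 at 48 h. That at 36966 bp stood at 77.2 and 81.0 at 2 h, 98.3 and 98.6 at 16 h, and 83.8 and 83.1 at 48 h. The one at 35094 bp was called from 4 h and reached 74.7 and 76.0 at 48 h. By contrast, the region at 24007 bp started at 98.3 and 95.2 at 2 h and stood at 34.1 and 15.7 at 48 h. Beside them, the region 16270 bp upstream had a peak in 1 of the 0 h libraries, at 58.9, and in every later library, at 98.6 and 98.4 at 2 h; by the rule it was not counted as gained.

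All 5 Klf6 regions seen only between 2 and 24 h lay downstream of the TSS. Of these, 4 held an AP-1 motif, the binding sequence of the FOS and JUN factors. The only one with a GATA motif, 2265 bp downstream, was among those 4. The highest, 25639 bp downstream in an exon of the noncoding gene Gm47507, had percentiles of 94.2 and 96.3 at 2 h, 92.5 and 97.4 at 4 h, 66.5 and 80.4 at 8 h, and 51.0 and 58.5 at 16 h. The next, 9196 bp downstream, was called in both libraries from 2 to 16 h, at 66.0 and 73.8 at 2 h and 35.5 and 25.7 at 16 h. Of the lost regions, the one 38381 bp downstream was at 81.3 and 86.1 at 0 h, and that at 17404 bp was at 24.5 and 31.0. The promoter, 230 bp upstream, was at percentiles from 86.6 to 97.5 throughout.

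Klf3, at chr5:64803388-64832901 (plus strand, ENSMUSG00000029178), has several start sites, and 1 of them changed. Its main promoter region, 209 bp upstream, was called in both libraries at 5 time points and in 1 of 2 at 2 and 4 h; that 530 bp upstream of a second start site was called in all 14. The region 166 bp upstream of a start site further inside the gene was called in both libraries from 0 to 16 h and in none at 24 or 48 h. Its percentiles were 41.5 and 13.6 at 0 h, 48.8 and 54.7 at 2 h, and 31.4 and 23.8 at 16 h. It is shown as the only region within 1 kb of a TSS of the 6 genes that was gained or lost at 48 h, and it holds none of the marked motifs.
Klf3 166 bp upstream (chr5:64826544-64826743, + strand): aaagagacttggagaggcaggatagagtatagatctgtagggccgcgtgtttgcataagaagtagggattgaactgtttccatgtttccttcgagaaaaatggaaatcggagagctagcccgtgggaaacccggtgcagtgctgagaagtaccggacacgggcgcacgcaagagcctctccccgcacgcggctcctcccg

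Klf3 libraries called 10 and 8 regions at 0 h, 6 and 10 at 2 h, 11 and 11 at 4 h, 12 and 10 at 8 h, 14 and 17 at 16 h, 15 and 15 at 24 h, and 8 and 10 at 48 h. The 16 and 24 h libraries were above all others, and those of 48 h were within the range of 0 h. From 2 to 48 h the gained counts were 1, 3, 3, 5, 6 and 3 and the lost counts 1, 2, 1, 1, 2 and 3. Without replicate 1, 5 Klf3 regions were gained at 48 h, and without replicate 2, 6 were lost. The gained regions at 48 h were 10529 bp upstream, from 16 h, at 72.9 and 57.1; 35014 bp downstream, at 63.5 and 58.6; and 3023 bp upstream, from 4 h, at 47.0 and 54.9. The lost region 38676 bp upstream was called at 0 h only, at 55.5 and 68.0. Among those seen only on the way, the region 24370 bp downstream was called in both libraries at 2, 4 and 8 h, at 81.5 and 81.8 at 2 h.

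Klf9, at chr19:23141226-23168134 (plus strand, ENSMUSG00000033863), lost 5 regions and gained 2 of 17 at 48 h. With peaks up to 200 bp apart merged, it lost 1 and gained 1, so the difference between losses and gains rests on how close peaks are joined. Libraries called 10 and 11 regions at 0 h, 12 and 12 at 2 h, 9 and 11 at 4 h, 8 and 8 at 8 h, 10 and 11 at 16 h, 9 and 9 at 24 h, and 6 and 6 at 48 h. The 48 h libraries were below all others and the 2 h libraries above all others. From 2 to 48 h the gained counts were 4, 0, 0, 2, 2 and 2 and the lost counts 3, 2, 3, 2, 3 and 5. The 3 Klf9 regions seen only on the way, 49387 and 5518 bp upstream and 37531 bp downstream, were each called in both libraries at 2 h and at no later time in both; that at 49387 bp was at 59.6 and 58.2, and that at 5518 bp at 45.8 and 46.9.

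The lost Klf9 region with the highest score, 4733 bp upstream, stood at 75.7 and 76.9 at 0 h and at 57.7 and 55.5 at 24 h, and had no peak in the 2 h libraries. That 28236 bp downstream, with an AP-1 motif, stood at 67.4 and 64.5 at 0 h, 80.9 and 81.9 at 2 h, and was called in 1 library at 24 h, at 23.8. The gained region 1162 bp upstream was called in both libraries from 16 h and reached 72.1 and 71.2 at 48 h; the other, 6337 bp upstream, was at 42.9 and 25.7. The promoter, 249 bp upstream, was at percentiles from 72.0 to 94.6 throughout.

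The sequences of the regions were not used by the rule, and their motifs are given beside those of all regions of the same class. A GATA motif was present in the central 200 bp of 15 of the 23 regions gained at 48 h (65.2%), 2 of the 20 lost (10.0%), 3 of the 13 called in all libraries (23.1%) and 9 of the 17 seen only on the way (52.9%). Over all merged regions the shares in these classes were 57.9%, 22.5%, 17.9% and 53.5%. The order from gained to transient to constant is thus not particular to the KLF genes. The lost class stood below the constant class in the family, on 2 of 20 and 3 of 13 regions, but above it over all regions. This difference was not tested. A motif of the same letters in another order (the words AAGTAA and AAGTAG with their variants TAGTAA and TAGTAG) was present in 8.7% of the gained regions of the family and 23.9% of all gained regions. The median GC content of the central windows was 45.5% in the gained, 50.2% in the lost and 57.5% in the constantly called regions of the family, and its part in these shares was not tested.

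By gene, the gained regions with a GATA motif were 6 of 6 for Klf6, 4 of 5 for Klf5, 2 of 6 for Klf4, 1 of 3 for Klf3, 1 of 1 for Klf2 and 1 of 2 for Klf9. Klf4 and Klf3 thus had the lowest share, 33.3% each. Searched over their whole length, 5 of the 6 Klf4 regions held the motif, but longer windows hold any motif more often. An AP-1 motif was found in 6 of the 17 regions seen only on the way (35.3%, against 26.7% of such regions overall), 4 of them at Klf6 and 2 at Klf9, and in 1 of the 23 gained. The KLF motif itself (GGGTGTGG or GGGCGTGG) was in none of the 23 gained regions and in 4.95% of gained regions overall. It was in 2 of the 17 regions seen only on the way (11.8%, against 7.61% overall), among them the Klf6 region 25639 bp downstream shown above. Of the 20 lost regions 1 held it (5.0%, against 8.71%), as did 1 of the 13 called in all libraries (7.69%, against 8.31%). In the RefSeq promoter windows available for 5 of the genes (GRCm38.p6), the GATA motif was found at Klf2 alone, and 29.8% of all such windows hold it.

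**Figure D5:**
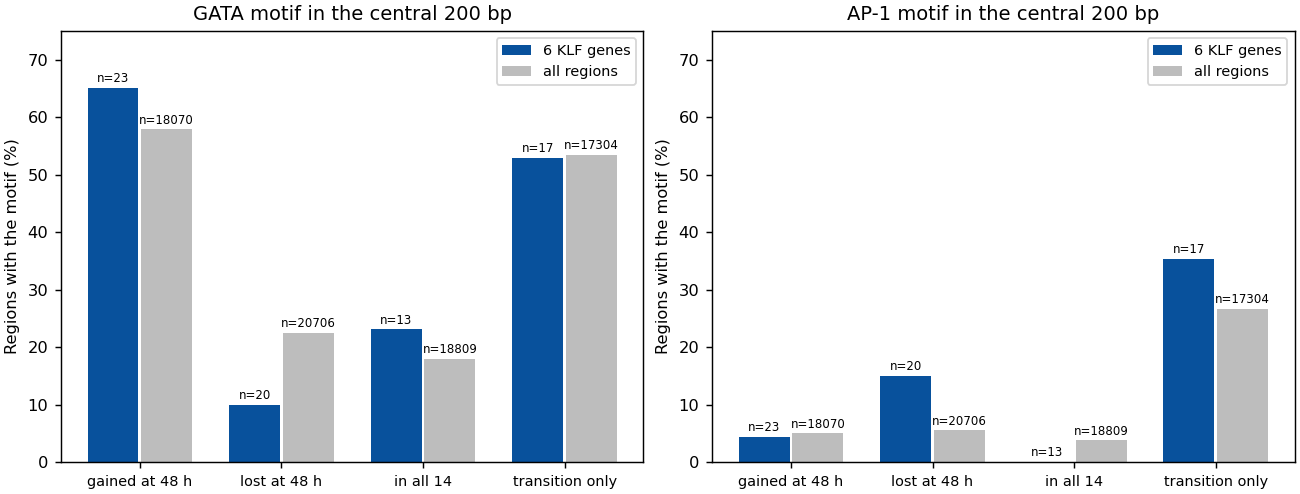
Percent of regions (y) whose central 200 bp hold a GATA motif (left) or an AP-1 motif (right) in 4 classes of regions, for the 6 KLF genes (blue) and all merged regions (grey), with the number of regions above each bar. GATA motifs are in 65.2% of the gained and 10.0% of the lost KLF regions, and AP-1 motifs in 35.3% of those seen only on the way.

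For comparison at 48 h, with no test, since the gained and lost counts chose the genes, 10 naive pluripotency genes had 27 of 174 regions gained (15.5%) and 44 lost (25.3%), and 10 PrE genes had 61 of 168 gained (36.3%) and 12 lost (7.14%). Klf4 had 37.5% gained and 6.25% lost, and Klf2 had 7.69% gained and 30.8% lost. Klf5 had 20.8% gained and 16.7% lost, and Klf6 26.1% and 13.0%. These shares rest on 13 to 24 regions per gene and on the same 14 libraries, and nothing is read from their order. At 2 h the gained shares were 13.8% for the 6 KLF genes, 6.32% for the naive genes and 7.74% for the PrE genes, against 8.64% of all regions. Of the 16 KLF regions gained then, 7 were at Klf6, 4 at Klf9, 3 at Klf5, 1 each at Klf3 and Klf4, and 0 at Klf2.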

How the data were processed

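ATAC-seq libraries of 50000 cells were processed by the authors with the ENCODE ATAC-seq pipeline (1.9.0). They deposited 1 peak list per library on mm10 (GRCm38), filtered, per the file names, by an irreproducible discovery rate of 0.05 between pseudoreplicates and against a blacklist, and replicates were not pooled. The submitters' processing notes also name deepTools. The deposited score is 1 unnamed value per peak made by the authors, on a scale not given in the sources used here, and was used only as a percentile within its own list. The lists hold no read counts, so the study's read-count comparison was not run and intervals are left out. The paper refers to a supplement for numbers of reads. These were not used here, so depth was not taken into account.

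Peaks overlapping by at least 1 bp were merged and assigned to the nearest protein-coding TSS of GENCODE M21 within 50 kb (Python 3.11.15, pandas 2.3.3, numpy 2.4.6). No region passed a chromosome end, and 27.5% of peak midpoints lay within 1 kb of a TSS against 5.07% and 5.02% after shifts of 10000 bp either way. Motifs were searched on both strands of the GRCm38.p6 genome from RefSeq (pysam 0.24.0), and figures were drawn with matplotlib 3.10.9. The calling and assignment were checked on simulated peak lists. The genes, gene lists and motifs were chosen with earlier results of these data known.

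Named regions were those within 1 kb of a TSS of their gene, up to 3 gained and 2 lost at 48 h per gene by mean score percentile, and up to 2 seen only on the way; other named regions were chosen after their values were seen. No test was made, since the gained and lost counts chose the genes and an exact two-sided permutation test of 2 libraries against 2 cannot go below p = 0.333. Alternatives were the 50000 highest-scoring peaks per list, 50% coverage, calling in 1 library, limits of 20 and 100 kb, gene starts only, merging across 200 bp, each replicate alone and whole-region motif search.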

Additional observations from a re-analysis of the deposited data

Results flagged for a closer look

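The number of Klf9 regions called moved in opposite directions at different times, with every library of one time above and every library of another below both 0 h libraries. The mean of the 2 libraries minus that of 0 h was 1.5 at 2 h, and it was -2.5 at 8 h, -1.5 at 24 h and -4.5 at 48 h. The difference was not tested. With peaks up to 200 bp apart merged, Klf9 lost 1 region and gained 1 at 48 h, against 5 and 2 in the main setting. In lists cut to the 50000 highest-scoring peaks it lost 7 and gained 2. The 2 h libraries held 58322 and 61988 peaks and the 48 h libraries 55588 and 58450, against 56924 and 60483 at 0 h, and the part of list length in these counts was not tested.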

How the results depend on the processing

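Across 25 counts and shares, 134 of 170 alternatives other than leaving out a replicate kept the value within 1.5 times the main count or 1 SD, and 36 moved it. The alternatives for the counts at 4 to 24 h, and for the 48 h counts of Klf2, Klf3, Klf5, Klf6 and Klf9, were added after the data were seen. The limits of 20 and 100 kb assigned 64 and 177 regions in place of 116, so counts under them move partly by construction. With the 20 kb limit, the family had 6 gained and 6 lost at 2 h and 11 gained and 11 lost at 48 h. Calling a region from 1 library gave 40 gained at 48 h, with Klf4 at 10 gained and 2 lost. A 100 kb limit gave 32 lost at 48 h and 3 lost for Klf4, and the 50000 highest-scoring peaks left 0 lost Klf4 regions. In those shortened lists, 21 regions were gained at 16 h and 25 at 24 h, against 31 and 27. The GATA motif share of the gained regions became 82.6% over whole regions, where longer windows were searched. With 1 replicate alone, gained regions at 2 h numbered 21 to 22 and lost 15 to 18, at 48 h gained 31 to 33 and lost 25 to 27, with Klf4 gaining 8 in both cases and losing 1 to 2, and the motif share was 57.6% to 64.5%. Such calls need only 1 library per time, which by construction admits more regions. No paired analysis was possible because the results come from no test. What depth limits was not measured, since the lists hold no reads.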

Other observations

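Among the other 20 KLF and SP genes, 27 of 170 regions were gained and 27 lost at 48 h (15.9% each). Over all merged regions the shares were 14.5% gained and 16.6% lost, so those of these genes were near them. Sp4 had 4 gained and 0 lost of 8 regions and Klf16 had 2 gained and 0 lost of 8, while Klf15 had 1 gained and 3 lost of 9, Klf12 1 and 4 of 15, and Sp5, a target of WNT signalling, 1 and 3 of 10. Sp2 and Sp8 each had 3 gained and 3 lost, of 12 and 17 regions. With 8 to 17 regions for each gene named here, nothing is read from these single counts.

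The share of a gene's regions called in each of the 14 libraries was compared with that of Klf4 over 3790 protein-coding genes with at least 8 regions. The 5 genes most like it by Pearson's r were Plod2 (0.959), Slc7a5 (0.956), Sox17 (0.951), Lin28a (0.943) and Emp2 (0.939). Sox17, a PrE transcription factor, went from 22.7% of its 11 regions at 0 h to 86.4% at 48 h, and Lin28a, an RNA-binding protein of pluripotent cells, from 25.0% to 80.0%. Of the family, Klf5 had 0.849, Klf3 0.555, Klf6 0.0, Klf9 -0.592 and Klf2 -0.634. All values share the same 14 libraries and their list lengths, so these are descriptions.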
